A study of Mus musculus with 2 samples.

Results

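The R-spondins, the LGR receptors that bind them and the membrane ligases that they act on were followed through all cells of mouse dorsal skin. The 9 genes (Rspo1, Rspo2, Rspo3, Rspo4, Lgr4, Lgr5, Lgr6, Znrf3 and Rnf43) were taken by symbol from the 32285 genes of the deposited count tables. All 9 had counts in both libraries.

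R-spondins are secreted proteins that raise the response of a cell to Wnt ligands. They bridge an LGR receptor and the transmembrane E3 ubiquitin ligases ZNRF3 and RNF43, which otherwise mark the Frizzled Wnt receptors for removal from the cell surface. In the hair follicle Wnt signals pass between the dermal papilla, a cluster of mesenchymal cells at the follicle base, and the keratinocytes around it. LGR5 and LGR6 are known as markers of stem and progenitor cells of the follicle and epidermis, and ZNRF3 and RNF43 are themselves induced by Wnt signals as a negative feedback.

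In the mm10 genome (GRCm38.p6, RefSeq) the ligand genes lie at chr4:124986401-125009102 (Rspo1), chr15:43020788-43171594 (Rspo2), chr10:29453106-29535867 (Rspo3) and chr2:151842647-151874668 (Rspo4). The receptor genes lie at chr2:109917647-110014257 (Lgr4), chr10:115450314-115587780 (Lgr5) and chr1:134983300-135105374 (Lgr6), and the ligase genes at chr11:5276329-5444847 (Znrf3) and chr11:87663087-87735539 (Rnf43). RefSeq promoter sequences were matched for 5 of the 9 genes, Rspo1, Rspo4, Lgr4, Lgr6 and Rnf43, of which Rnf43 had 2 start sites. Below is 1 promoter for each role, a ligand, a receptor and a ligase, each on the plus strand, 5′ to 3′, and limited to bases before the annotated gene. They cover chr4:124986180-124986400 for Rspo1, chr2:109917397-109917646 for Lgr4 and chr11:87662837-87663086 for Rnf43, and capitals mark a match to a searched motif.
Rspo1: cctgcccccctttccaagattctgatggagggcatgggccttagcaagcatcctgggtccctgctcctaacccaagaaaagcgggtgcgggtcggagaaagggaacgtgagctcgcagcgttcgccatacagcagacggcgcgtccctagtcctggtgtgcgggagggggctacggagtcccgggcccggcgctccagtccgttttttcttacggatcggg
Lgr4: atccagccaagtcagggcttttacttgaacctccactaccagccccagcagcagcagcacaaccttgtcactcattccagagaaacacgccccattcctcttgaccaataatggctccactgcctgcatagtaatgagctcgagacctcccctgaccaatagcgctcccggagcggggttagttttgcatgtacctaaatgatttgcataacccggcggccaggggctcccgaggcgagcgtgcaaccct
Rnf43: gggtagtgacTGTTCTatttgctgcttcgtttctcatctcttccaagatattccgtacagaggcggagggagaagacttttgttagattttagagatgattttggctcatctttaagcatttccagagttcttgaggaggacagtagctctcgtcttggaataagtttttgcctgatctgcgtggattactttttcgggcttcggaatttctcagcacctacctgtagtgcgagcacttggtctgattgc

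The 250 bases before each start were searched on both strands for the TCF/LEF motif CTTTGAT, the full androgen response element (a palindrome of its half-sites) and the half-site AGAACA. The half-site was found in 1 of the 2 Rnf43 promoters, on the minus strand, and no other motif match was found among the 6 promoters. Over 32851 RefSeq promoters of the same length, 3.21% held the TCF/LEF motif, 0.387% the full element and 16.1% the half-site. Such a match is a string of letters and not a shown binding site.

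Both groups were male C3H/HeN mice, shaved at 7 weeks and 9 weeks old at harvest. The control group received vehicle and the model of androgenetic alopecia (AGA) received testosterone propionate (TP), an androgen ester, at 0.5 mg per day under the skin, with no genetic change in either group. Skin of 15 mice per group was pooled into 1 suspension and 1 droplet library, so no value below has a replicate, and the group that also received an antibody is not analysed here. Unique molecular identifiers (UMIs) count each captured transcript 1 time at its 3′ end.

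After filters and removal of doublets, 39076 control cells (108021268 UMIs, median 2061.5 per cell) and 18542 TP cells (138686109 UMIs, median 5057) were kept. The libraries shared 303 barcodes, of which 183 were kept in both. Clustering, done without the 9 genes and without other Wnt pathway genes, gave 30 clusters, of which 23 fell into 15 classes named after their markers ("-like"). Dermal papilla cell (DPC)-like cells held 9 of 9 DPC markers at least 2-fold above all other cells, and hair matrix-like cells 3 of 8 of theirs. The 7 unnamed clusters, called here by their leading genes, held 39.1% of control and 15.0% of TP cells. Levels are UMIs of a gene per 1000000 UMIs of the same cells (CPM), and 95% intervals cover counting error only, not the differences between mice or libraries.

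Over all kept cells, the 4 R-spondins, Lgr4, Znrf3 and Rnf43 were lower in the TP library and Lgr5 and Lgr6 were higher. The level of Rspo4 went from 45.8 CPM in control to 8.13 CPM in TP, a ratio of 0.178 (95% interval 0.166 to 0.190). Rspo2 went from 165 to 73.6 CPM (ratio 0.445), Rspo3 from 204 to 92.3 CPM (ratio 0.452) and Rspo1 from 45.5 to 32.0 CPM (ratio 0.702, 0.674 to 0.732). Lgr5 went the other way, from 31.1 to 67.1 CPM, a ratio of 2.16 (2.07 to 2.25). Lgr6 was at 42.9 CPM in control and 53.1 CPM in TP (ratio 1.24). Lgr4 went from 259 to 141 CPM (ratio 0.547), Znrf3 from 454 to 230 CPM (ratio 0.507) and Rnf43 from 98.1 to 53.9 CPM (ratio 0.549). In such sums, fewer cells of a type and less RNA per cell cannot be told apart.

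A ratio of at least 2 was reached by 1 of the 9 genes (Lgr5), where 7.95% of the 17580 genes with at least 50 UMIs did so. A ratio of at most 0.5 was reached by 3 of the 9 (Rspo2, Rspo3 and Rspo4), against 10.9% of all genes. The median log2 ratio was -0.87 over the 9 genes and -0.25 over all genes. Library scaling by trimmed mean of M-values (TMM) raises every ratio over all cells by the inverse of 0.832, after which only Rspo4 of the 3 stays below 0.5. The cell makeup of the libraries differed as well: inner root sheath-like cells made up 19.2% of control and 6.48% of TP cells, and outer bulge and outer root sheath-like cells 1.55% and 7.89%. With the clusters of the control library weighted alike in both libraries, the ratios were 0.968 for Rspo1, 0.717 for Rspo2, 0.637 for Rspo3, 0.578 for Rspo4 and 1.63 for Lgr5. The same weights gave 0.852 for Lgr4, 1.18 for Lgr6, 0.844 for Znrf3 and 0.897 for Rnf43, so no gene was then 2-fold apart. With the TP library's weights Rspo4 was at 0.361, still more than 2-fold lower, and the other 8 genes lay between 0.584 and 1.48.

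**Figure D1:**
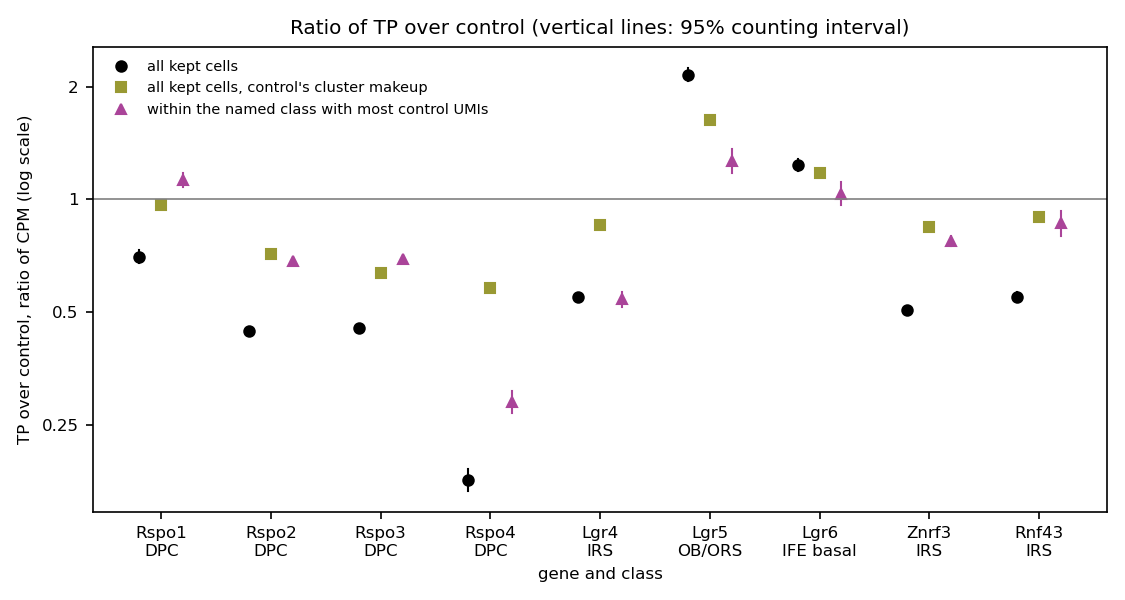
Ratio of TP over control (log scale) for each gene over all kept cells (circles), over all kept cells with the control's cluster makeup in both libraries (squares), and within the named class that held most of its control UMIs (triangles, class under the gene name). Vertical lines are 95% counting intervals, absent for the squares. Rspo4 lies lowest in all 3 measures at 0.178, 0.578 and 0.287, and Lgr5 lies highest at 2.16, 1.63 and 1.26.

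All 4 ligands were found mainly in DPC-like cells, which held 88.5% of the Rspo1 UMIs, 94.3% of Rspo2, 91.5% of Rspo3 and 91.3% of Rspo4 in control, and 91.9%, 93.8%, 90.7% and 95.6% in TP. In both libraries they ranked first for every R-spondin, with an interval apart from that of the class ranked second. The class comprised 3738 control and 1565 TP cells. Most control cells lay in a cluster led by Ndnf and Tmem132c (2154 cells) and most TP cells in a cluster led by Luzp2 and Fgf14 (998 cells).

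Within DPC-like cells Rspo3, the ligand with the most UMIs, was at 1831 CPM in control and 1265 CPM in TP, a ratio of 0.691 (0.675 to 0.707). Rspo2 was at 1528 and 1044 CPM, a ratio of 0.683 (0.666 to 0.701). Rspo1 was at 395 and 445 CPM, a ratio of 1.13 (1.08 to 1.18). Rspo4 was at 409 and 118 CPM, a ratio of 0.287 (0.269 to 0.307). Thus 3 ligands were lower in TP and Rspo1 was slightly higher. The summed level of the 9 DPC markers in the class was also lower in TP, at 12983 CPM in control and 8783 CPM in TP. Of the 9 genes followed here, 2 were at least 2-fold lower in this class (Rspo4 and Rnf43), against 7.02% of its genes. The count 2-fold higher was 0, against 3.91%. Rnf43 was at only 20.04 CPM in control and 5.56 CPM in TP, not clearly above its level in myeloid-like cells. The makeup of the R-spondin pool is given as shares of its UMIs, and equal capture of the 4 genes was not tested. Rspo1 made up 9.48% of the pool in control and 15.5% in TP, and Rspo4 9.83% and 4.09%. The shares of Rspo2 (36.7% and 36.4%) and Rspo3 (44.0% and 44.1%) were nearly equal in both.

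To compare cells at 1 depth, every cell was thinned to 1000 UMIs, and 355 control and 91 TP DPC-like cells below that depth were left out. A UMI of Rspo3 was found in 69.0% of thinned control DPC-like cells and 57.9% of TP cells, and one of Rspo2 in 67.6% and 46.5%. Rspo1 was found in 29.3% and 30.7%, and Rspo4 in 30.5% and 9.29%. At a fixed depth such a share follows the level and is no separate measure of it. Without thinning the shares were 51.7% and 22.4% for Rspo4, 52.0% and 66.7% for Rspo1, 80.4% and 69.1% for Rspo2, and 79.9% and 81.9% for Rspo3, at medians of 2462.5 and 4633 UMIs per cell. In inner root sheath-like cells, keratinocytes that serve as a measure of free RNA, the thinned shares in control were 1.29% for Rspo3, 0.682% for Rspo2, 0.363% for Rspo1 and 0.406% for Rspo4. In TP they were 0.518%, 0.173% and 0.0863% for Rspo3, Rspo2 and Rspo1, and Rspo4 was found in 0 of 1159 cells, which allows a share of up to 0.259%. Median depths there were 1858 and 4828 UMIs, and 623 control and 43 TP cells were left out.

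Several R-spondins were found in the same thinned cells. Of 3383 control DPC-like cells 40.1% held UMIs of 2 of the 4 genes, 24.8% of 3 and 5.03% of all 4, and of 1474 TP cells 31.7%, 14.2% and 1.09%. None of the 4 was seen in 8.31% of control and 18.9% of TP cells. Rspo2 was found in 73.1% of control cells with an Rspo3 UMI and in 55.4% of those without, and in TP in 52.5% and 38.4%. Rspo4 was found alike in control cells with and without Rspo3 (30.6% and 30.2%), and also in TP (9.25% and 9.35%). Rspo2 was thus found more often in cells with Rspo3 in both libraries, while a difference in Rspo4 with Rspo3 was not detectable. These pairs pool the subclusters described below, which differ in the levels of these genes. Pairs within a subcluster were not tested. In TP Rspo4 was found in 13.1% of cells with an Rspo2 UMI and 5.96% of those without, and in control in 30.9% and 29.5%.

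The DPC-like class was split into 7 subclusters, named here by their leading genes, and the R-spondins differed among them in level and in makeup. The Cdh22/Ndnf subcluster, 39.0% of control and 10.4% of TP DPC-like cells, had the highest Rspo4 level, 649 CPM in control and 520 CPM in TP (ratio 0.801, 0.726 to 0.883). The Sfrp2/Sostdc1 subcluster (36.1% and 14.5% of cells) had the highest Rspo3, 2648 and 2166 CPM. Its Rspo2 was at 1936 and 2268 CPM, higher in TP (ratio 1.17, 1.13 to 1.22), and its Rspo4 at 276 and 125 CPM (ratio 0.453). Sfrp2 and Sostdc1 encode secreted modulators of Wnt and BMP signals.

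The next subclusters were mostly of the TP library. The Adamts18/Lhfpl3 subcluster made up 1.61% of control (60 cells) and 33.7% of TP (528 cells) DPC-like cells. It had Rspo3 at 2256 CPM in control and 1442 CPM in TP, Rspo2 at 1663 and 752 CPM, and Rspo1 at 364 and 554 CPM. Rspo4 was almost missing from it, with 5 UMIs in control (27.2 CPM) and 12 in TP (3.59 CPM), or 0.131% of its R-spondin UMIs in TP. The Aspn/Tnn subcluster made up 0.401% of control (15 cells) and 18.1% of TP (283 cells) and was low in all ligands in TP, with Rspo1 at 194 CPM, Rspo2 at 54.0 CPM, Rspo3 at 384 CPM and Rspo4 at 11.0 CPM. Its summed level of 9 DPC markers in TP was 2192 CPM, against 8783 CPM in the whole class, with no marker at 0. Both of these subclusters held little Rspo4.

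**Figure D2:**
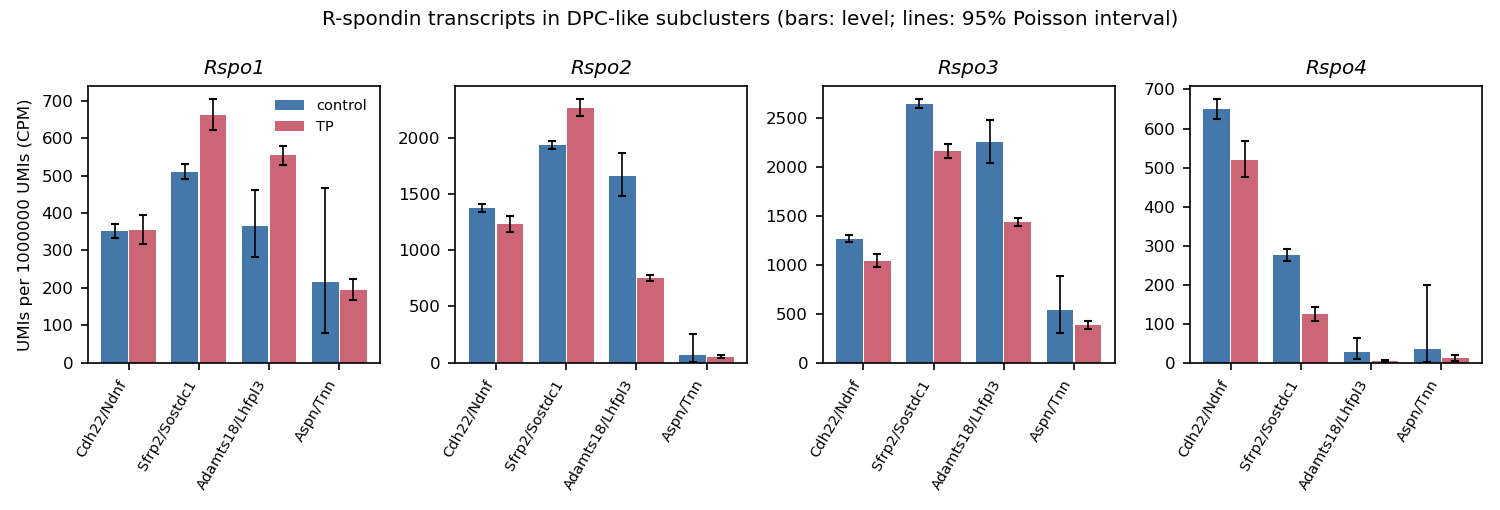
Levels (CPM, linear axis from 0) of the 4 R-spondins in 4 DPC-like subclusters, named by leading genes, in control (blue) and TP (red) with 95% Poisson intervals. Rspo4 ranges from 649 CPM in the Cdh22/Ndnf control cells to 3.59 CPM in the Adamts18/Lhfpl3 TP cells, while Rspo1 lies between 194 and 663 CPM in all 4 TP subclusters.

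When the control's subcluster makeup was given to both libraries, the Rspo2 ratio within DPC-like cells turned from 0.683 to 1.03. With the same weights the ratio was 1.19 for Rspo1, 0.810 for Rspo3 and 0.641 for Rspo4, and with the TP makeup in both it was 1.30, 0.775 for Rspo2, 0.720 for Rspo3 and 0.538 for Rspo4. The direction of Rspo2 thus depended on the makeup of the class, and those of the other 3 ligands were the same with both makeups. These weighted ratios have no interval. With the TP makeup, the control levels used for the Adamts18/Lhfpl3 and Aspn/Tnn subclusters rest on only 60 and 15 cells. Rspo4 was no longer 2-fold lower with either makeup. The class also held a shallow subcluster led by inner root sheath keratins and cell cycle genes (577 control and 97 TP cells) and a small one led by epidermal genes (54 and 25 cells). Without both, the ratios were 1.08 for Rspo1, 0.644 for Rspo2, 0.657 for Rspo3 and 0.279 for Rspo4. The summed level of 8 inner root sheath markers in DPC-like cells came to 2052 CPM for control and 430 CPM for TP, with no marker at 0, and in dermal fibroblast (DF)-like cells it was 1712 and 342 CPM. The part of such keratinocyte RNA in these ratios was not tested.

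Outside the DPC-like class, dermal sheath cup-like cells, mesenchymal cells around the base of the follicle, came second in control for every R-spondin. In these 304 control and 121 TP cells Rspo2 was at 312 and 25.8 CPM (ratio 0.0828, 0.0491 to 0.132) and Rspo3 at 304 and 57.0 CPM (ratio 0.188). Rspo1 was at 201 and 84.2 CPM (ratio 0.418) and Rspo4 at 60.1 and 2.72 CPM, the latter from 2 UMIs. Of 7 of the genes with enough UMIs in this class, 5 were at least 2-fold lower in TP (the 4 ligands and Znrf3), against 5.95% of genes, and 0 were 2-fold higher, against 3.97%. In the naming of this class DPC markers scored second, at 2.05 against 3.31 for its own markers. The part of papilla cells or papilla RNA in these levels was not tested.

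DF-like cells were few (127 control and 516 TP cells) and their R-spondins were unevenly spread. Rspo2 was at 45.7 CPM in control and 83.1 CPM in TP (ratio 1.82, 1.17 to 2.97), Rspo1 at 26.1 and 27.4 CPM and Rspo3 at 19.6 and 20.3 CPM. The summed level of the 9 DPC markers in DF-like cells was 403 CPM in control, with 1 marker at 0, and 306 CPM in TP, against 12983 and 8783 CPM in DPC-like cells, and the part of papilla RNA in these levels was not tested. Among TP cells Rspo2 reached 320 CPM and Rspo3 220 CPM in a subcluster led by Trps1 and Robo2 (58 cells). Few of these cells carried them: after thinning, 11 of the 58 had an Rspo2 UMI (19.0%) and 3 had an Rspo3 UMI (5.17%). Rspo2 was at 212 CPM in one led by Inmt and Agt (114 cells), with Rspo3 there at 5.39 CPM, and at 127 CPM in one led by Akr1c18 (57 cells). Rspo1 was highest at 91.2 CPM in one led by Igfbp2 (62 cells), where no Rspo2 UMI was found. Rspo1 was also found in the Trps1/Robo2 subcluster, at 71.1 CPM (44.5 to 108), an interval that overlaps the 68.7 to 119 CPM of the Igfbp2-led one. Control had 58 cells in the Trps1/Robo2 subcluster, with Rspo2 at 54.4 CPM (ratio 5.88, 2.97 to 13.2) and no Rspo3 UMI, and 3 to 26 cells in each of the others.

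Rspo3 also lay above its level in other keratinocytes in the basal cells of the interfollicular epidermis (IFE basal-like), at 41.0 CPM in control and 26.4 CPM in TP. A thinned cell had an Rspo3 UMI in 3.93% of control and 3.01% of TP IFE basal-like cells (8.34% and 8.90% without thinning, at medians of 2014 and 3412 UMIs, with 260 and 76 cells left out of the thinned shares). Across 12 other keratinocyte classes and clusters Rspo3 spanned 5.66 to 21.4 CPM in control and 1.60 to 8.67 CPM in TP. The other ligands spanned 2.50 to 5.45 CPM (Rspo1), 5.24 to 10.2 CPM (Rspo2) and 2.32 to 5.45 CPM (Rspo4) in those control cells, and at most 2.14, 8.98 and 1.13 CPM in TP. These levels were lower in TP in each class and cluster with the exception of Rspo2 in a mitotic cluster led by Knl1, at 5.35 CPM in control and 8.98 CPM in TP (12 UMIs). The summed level of the 9 DPC markers in inner root sheath-like cells came to 91.8 CPM for control and 24.3 CPM for TP, with no marker at 0, and the part of free RNA in these levels was not tested. In inner root sheath-like cells 5 of 9 genes were at least 2-fold lower in TP (the 4 ligands and Lgr5), against 7.45% of genes, with all 5 at or below 14.6 CPM in control, and 0 were 2-fold higher, against 5.23%. In IFE basal-like cells 2 of 8 were 2-fold lower (Rspo1 and Rspo2), against 3.64%, and 0 higher, against 1.53%. In IFE suprabasal-like cells 5 of 9 were 2-fold lower (the 4 ligands and Lgr4), against 11% of genes, and 0 higher, against 2.12%. Lgr4 was there at 87.1 CPM in control, its lowest control level of all classes and clusters.

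**Figure D3:**
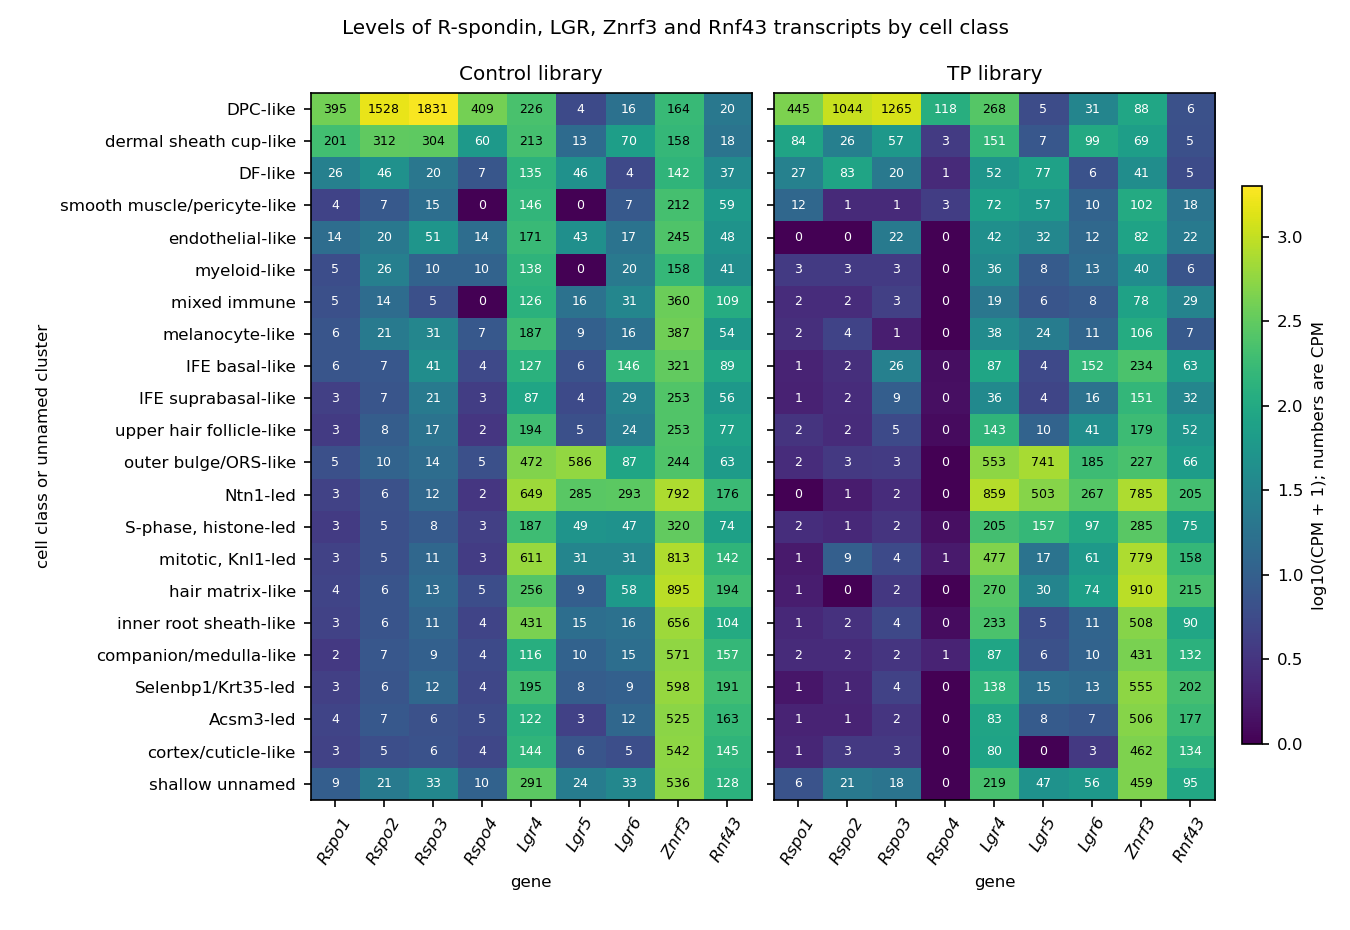
Levels of the 9 genes (columns) in 15 named classes and 7 unnamed clusters (rows) in the control and TP libraries, with log10(CPM + 1) as colour and CPM printed in each cell. The R-spondins peak in DPC-like cells (Rspo3 at 1831 and 1265 CPM), Lgr5 in outer bulge and outer root sheath-like cells (586 and 741 CPM), and Znrf3 in hair matrix-like cells (895 and 910 CPM).

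Among the receptors, Lgr4 was the most widely spread. Its highest level in both libraries was in an unnamed keratinocyte cluster led by Ntn1, Tmtc1, Sox5 and Eda, the Ntn1-led cluster (1680 control and 341 TP cells), at 649 and 859 CPM (ratio 1.32, 1.23 to 1.43). Next in control came a mitotic cluster led by Knl1 at 611 CPM, whose interval overlapped with the first, and then outer bulge and outer root sheath-like cells at 472 CPM and inner root sheath-like cells at 431 CPM, which also overlapped. Inner root sheath-like cells were lower in TP, at 233 CPM (ratio 0.540, 0.516 to 0.565). The largest cluster of that class was one led by Sytl2 and Krt71 in control (3727 cells) and one led by Krt73 in TP (560 cells). Lgr4 in outer bulge and outer root sheath-like cells was higher in TP, at 553 CPM (ratio 1.17, 1.08 to 1.27).

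DPC-like cells also held Lgr4, at 226 CPM in control and 268 CPM in TP (ratio 1.19, 1.12 to 1.255), in 19.7% and 23.8% of thinned cells and in 39.5% and 59.4% without thinning. Its level in myeloid-like cells was lower, at 138 and 36.1 CPM. In thinned control cells Lgr4 was found in 15.9% of smooth muscle and pericyte-like cells (8.98% to 25.2%) and 15.0% of endothelial-like cells (8.65% to 23.5%), intervals that overlap that of DPC-like cells (18.3% to 21.04%). In TP these shares were 6.52% (3.03% to 12.0%) and 2.01% (0.417% to 5.77%), below the 21.7% to 26.1% of DPC-like cells. In control, Lgr4 was found in 18.8% of thinned DPC-like cells with an Rspo3 UMI and 21.7% of those without. In DF-like cells Lgr4 (135 and 51.7 CPM), Znrf3 (142 and 41.0 CPM) and Rnf43 (37.0 and 4.70 CPM) lay near their levels in myeloid-like cells, 158 and 39.6 CPM for Znrf3 and 40.8 and 6.16 CPM for Rnf43. In DF-like cells 2 of 6 genes (Lgr4 and Znrf3) were at least 2-fold lower in TP, against 9.33% of genes, and 0 were 2-fold higher, against 2.94%.

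Lgr5, the receptor that marks active stem cells of the follicle, had its highest level in outer bulge and outer root sheath-like cells, at 586 CPM in control and 741 CPM in TP (ratio 1.26, 1.18 to 1.36). The class held 25.6% of all Lgr5 UMIs in control and 58.7% in TP. A thinned cell had an Lgr5 UMI in 36.2% of control and 45.4% of TP cells, against 1.39% and 0.518% of inner root sheath-like cells. Without thinning the shares were 47.4% and 67.8%, at medians of 1807.5 and 3313 UMIs, and thinning left out 106 and 110 cells. Second in both libraries was the Ntn1-led cluster at 285 and 503 CPM (ratio 1.76, 1.59 to 1.95), with its interval apart from the first. It held 29.2% of Lgr5 UMIs in control and 6.77% in TP. The next was a cluster led by histone genes of S phase (2053 control and 1203 TP cells) at 49.4 and 157 CPM (ratio 3.18, 2.89 to 3.50), where DF-like cells had an interval that overlapped with it in control. In hair matrix-like cells, the dividing cells that build the shaft, Lgr5 was 2-fold higher in TP, against 1.78% of genes. The other 4 genes with enough UMIs were not, and 0 of the 5 were 2-fold lower, against 2.41%. Without thinning 1.83% of control and 10.0% of TP hair matrix-like cells had an Lgr5 UMI. In inner root sheath-like cells these shares were 2.61% and 3.16%, so the control level in hair matrix-like cells was near the background.

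Within outer bulge and outer root sheath-like cells Lgr5 and Lgr6 were arranged differently over 7 subclusters. A subcluster led by Tagln and Acta2, genes of the contractile apparatus, had Lgr5 at 1026 CPM in control and 1020 CPM in TP but Lgr6 at only 7.51 and 20.5 CPM. The Frem1/Kcnd3 subcluster (38 control and 412 TP cells) had Lgr5 at 942 and 891 CPM and Lgr6 at 83.2 and 343 CPM (ratio 4.13, 2.16 to 9.07), while Lgr4 was lower there in TP, at 416 and 276 CPM (ratio 0.663, 0.489 to 0.920). The Cdh13/Sema3e subcluster (12 and 222 cells) held the highest Lgr6, 516 CPM from 9 UMIs in control and 499 CPM in TP. Lgr5 was therefore about the same between libraries in the 2 richest control subclusters. It was higher in TP in the Prlr/Pdzrn4 subcluster, at 589 and 1121 CPM (ratio 1.90, 1.67 to 2.18), in the Cited2/Cd34 subcluster, at 446 and 719 CPM (ratio 1.61, 1.26 to 2.09), and in a mitotic subcluster led by Aspm, at 367 and 805 CPM (ratio 2.19, 1.39 to 3.67). Lgr6 in that Aspm-led subcluster was lower in TP, at 270.4 and 115 CPM (ratio 0.424, 0.240 to 0.805), from 14 UMIs in control. Lgr5 in the Cdh13/Sema3e subcluster was at 115 CPM in control, from 2 UMIs, and 665 CPM in TP (ratio 5.80, 1.59 to 48.2). Prlr encodes the prolactin receptor and CD34 is a marker of bulge stem cells. The Krt79/Rap1gap2 subcluster was lower in Lgr5, at 265 and 307 CPM, and held the highest Lgr4 in TP, 976 CPM against 523 CPM in control.

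**Figure D4:**
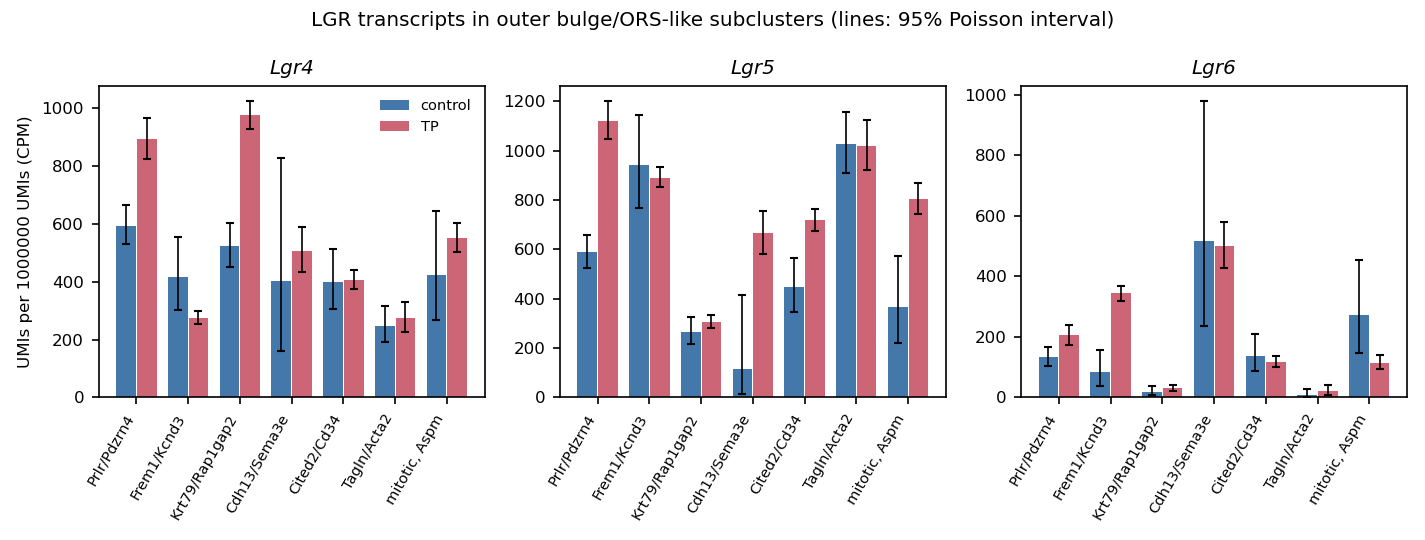
Levels (CPM, linear axis from 0) of Lgr4, Lgr5 and Lgr6 in the 7 outer bulge and outer root sheath-like subclusters in control (blue) and TP (red), with 95% Poisson intervals. Lgr5 is near 1000 CPM with Lgr6 at 7.51 and 20.5 CPM in the Tagln/Acta2 subcluster, and Lgr6 is highest at 516 and 499 CPM in the Cdh13/Sema3e subcluster.

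Lgr5 was also seen in mesenchymal cells. In DF-like cells it was at 45.7 CPM in control and 77.4 CPM in TP (ratio 1.69, 1.09 to 2.77), and within TP it was at 148 CPM in a subcluster led by Fgf9 and Angptl7 and at 124 CPM in one led by Cthrc1. In smooth muscle and pericyte-like cells it was at 57.0 CPM in TP and at 0 in control, where 273338 UMIs were read. Few cells carried it: 9 of 168 TP cells (5.36%) had an Lgr5 UMI, and 3 of 138 (2.17%) after thinning, against 0 of 88 in control, which allows a share of up to 3.41%. In DPC-like cells it was at 4.44 and 4.80 CPM, and 0.355% and 0.611% of thinned cells had a UMI, below or near the share in inner root sheath-like cells.

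Lgr6, which marks cells of the upper follicle and epidermis, was highest in the Ntn1-led cluster in both libraries, at 293 CPM in control and 267 CPM in TP (ratio 0.910, 0.802 to 1.03). IFE basal-like cells were at 146 and 152 CPM (ratio 1.04, 0.965 to 1.12), and 13.8% and 15.1% of thinned cells had a UMI, or 24.7% and 36.2% without thinning. Neither of these 2 differed between libraries beyond counting error. Outer bulge and outer root sheath-like cells went from 87.2 to 185 CPM (ratio 2.12, 1.76 to 2.56), with a ratio of 1.49 when the control's subcluster makeup was given to both libraries and 1.53 with the TP makeup, and the histone-led cluster from 46.5 to 97.4 CPM (ratio 2.09, 1.89 to 2.33). Of 5 of the genes in the outer bulge and outer root sheath-like class 1 (Lgr6) was at least 2-fold higher in TP, against 2.66% of genes, a call that was lost with either subcluster makeup, and 0 were 2-fold lower, against 3.6%. In the histone-led cluster 2 of 8 were 2-fold higher (Lgr5 and Lgr6), against 3.18%, and 2 were 2-fold lower (Rspo2 and Rspo3, at 7.61 CPM or less), against 1.79%. In the Ntn1-led cluster 0 of 5 were 2-fold higher, against 1.56%, and 0 were lower, against 2.3%.

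The receptors overlapped in single cells to different degrees. In the Ntn1-led cluster Lgr6 was found in 31.0% of thinned control cells with an Lgr5 UMI and 20.8% of those without, and in TP in 25.9% and 18.9%, with overlapping intervals. In the histone-led cluster the shares were 19.0% and 3.88% in control and 17.5% and 7.72% in TP. In outer bulge and outer root sheath-like cells they were 6.63% and 9.09% in control and 19.4% and 16.4% in TP, again with overlapping intervals. Lgr6 was also found in dermal sheath cup-like cells, at 70.1 and 99.2 CPM, and in the Aspn/Tnn DPC-like subcluster, at 146 CPM in TP.

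The ligase genes Znrf3 and Rnf43 were highest in the same class of dividing keratinocytes. Znrf3 was highest in hair matrix-like cells, at 895 CPM in control and 910 CPM in TP (ratio 1.02, 0.948 to 1.09). The Knl1-led mitotic cluster (813 and 779 CPM) and the Ntn1-led cluster (792 and 785 CPM) followed, with intervals that overlapped with each other but not with that of hair matrix-like cells, and none of these 3 differed between libraries beyond counting error. Rnf43 was also highest in hair matrix-like cells, at 194 and 215 CPM (ratio 1.11, 0.958 to 1.28). A cluster led by Selenbp1 and Krt35 (191 and 202 CPM) and the Ntn1-led cluster (176 and 205 CPM) overlapped with it. Both genes were lower in TP in the epidermis. They were also lower in TP in myeloid-like cells, as given above, and the part of free RNA in the epidermal differences was not tested. In IFE basal-like cells Znrf3 was at 321 and 234 CPM (ratio 0.730, 0.693 to 0.769) and Rnf43 at 89.0 and 63.3 CPM (ratio 0.711, 0.644 to 0.786). In IFE suprabasal-like cells Znrf3 was at 253 and 151 CPM (ratio 0.595) and Rnf43 at 56.4 and 31.8 CPM (ratio 0.564). The largest cluster of that class was one led by Il34 in control (1483 cells) and one led by Hrnr and Flg2 in TP (1686 cells).

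In inner root sheath-like cells, the named class with the most Znrf3 UMIs in control, Znrf3 was at 656 and 508 CPM (ratio 0.775, 0.750 to 0.800). Rnf43 was there at 104 and 89.9 CPM (ratio 0.863, 0.798 to 0.932), a difference nearly lost with other scalings, given in the last section. In DPC-like cells Znrf3 was at 164 and 88.2 CPM and Rnf43 at 20.04 and 5.56 CPM. In control neither lay clearly above myeloid-like cells, and in TP Znrf3 did (39.6 CPM there) while Rnf43 did not. Over 22 classes and clusters of both libraries (44 points), Znrf3 was the gene whose log2(CPM + 1) was most like that of Rnf43, with a Pearson r of 0.939. The genes most like each ligand were Fgf7, Cdh11 and Hhip for Rspo1 (r 0.956 to 0.947), Pappa2, Fgf7 and Lingo2 for Rspo2, Corin, Pappa2 and Alx4 for Rspo3, and Ncam2, Corin and Shisa9 for Rspo4. Of these, Fgf7, Hhip, Corin and Alx4 are also among the markers used to name DPC-like cells. The genes most like Lgr5 were Slc38a4 (r 0.810), Sema3e and Tbx1. Tbx1 is also among the markers used to name outer bulge and outer root sheath-like cells. Those most like Lgr6 were Slc38a2 (r 0.810), Impa2 and Zcchc8, and those most like Lgr4 were Kcnq1ot1, Adnp and Lncppara. Those most like Znrf3 were Pds5a, Ubap2 and Sf3b3, and Hook1 and E2f2 followed Znrf3 for Rnf43. The points share libraries and depth, so these values are descriptions only.

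Other genes of the pathway were taken from a list of 42 (Wnt receptors, relay, nuclear factors, feedback targets and other partners), of which 41 had enough UMIs. Over all kept cells 0 of the 41 were at least 2-fold higher and 3 were 2-fold lower in TP: the receptor gene Fzd5, the nuclear factor Lef1 and the feedback target Axin2. None of these 3 was 2-fold lower with shared cluster weights: with the control's and the TP weights the ratios were 0.653 and 0.5999 for Fzd5, 0.924 and 0.795 for Lef1, and 0.631 and 0.587 for Axin2. Their shares stand beside the 7.95% and 10.9% of all genes given above. Within DPC-like cells Axin2, a common readout of Wnt activity, was at 117 CPM in control and 40.4 CPM in TP (ratio 0.347, 0.308 to 0.389). It was lower in TP in the Cdh22/Ndnf subcluster (126 and 71.1 CPM), in the Sfrp2/Sostdc1 subcluster (123 and 77.4 CPM) and in the Adamts18/Lhfpl3 subcluster (103 and 25.1 CPM). The target Tnfrsf19 was lower in TP to a like degree, at 119 and 45.4 CPM (ratio 0.382, 0.342 to 0.427). With the control's subcluster makeup in both libraries the ratio was 0.576 for Axin2 and 0.428 for Tnfrsf19, and with the TP makeup 0.388 and 0.607, so that each was 2-fold lower with 1 of the makeups and not with the other. Axin2 was also lower in TP in DF-like cells, at 30.5 and 15.6 CPM (ratio 0.512, 0.286 to 0.982). Tnfrsf19 was there at 69.7 and 18.4 CPM (ratio 0.264, 0.174 to 0.409). The summed level of inner root sheath markers was lower in TP in both classes, as given above. The part of free RNA in these Axin2 and Tnfrsf19 differences was not tested. Smaller differences in DPC-like cells were seen for Apcdd1 (400 and 318 CPM, ratio 0.797), Nkd1 (106 and 92.8 CPM, ratio 0.872) and Lef1 (1194 and 1062 CPM, ratio 0.889), each with an interval that excludes 1. The direction of Nkd1 turned with the control's subcluster makeup (ratio 1.07), and that of Lef1 was lost with the TP makeup (1.00). Among subclusters these genes were higher in TP in some and lower in others. Nkd1 was higher in the Sfrp2/Sostdc1 subcluster (ratio 1.26, 1.07 to 1.46) and lower in the Adamts18/Lhfpl3 subcluster (0.563, 0.363 to 0.917). Apcdd1 was higher in the Adamts18/Lhfpl3 subcluster (1.54, 1.10 to 2.21) and lower in the Sfrp2/Sostdc1 subcluster (0.754, 0.682 to 0.831). Lef1 was higher in the Adamts18/Lhfpl3 subcluster (1.31, 1.12 to 1.54) and lower in the Cdh22/Ndnf (0.817, 0.766 to 0.870) and Sfrp2/Sostdc1 (0.858, 0.809 to 0.909) subclusters. Nkd2 (231 and 242 CPM) and Notum (85.2 and 92.02 CPM), which encode feedback inhibitors, had intervals of the class ratio that include 1. In the Cdh22/Ndnf subcluster both were higher in TP, Notum at 146 and 209 CPM (ratio 1.43, 1.21 to 1.69) and Nkd2 at 269 and 374 CPM (ratio 1.39, 1.23 to 1.57). Notum was higher in the Sfrp2/Sostdc1 subcluster too, at 17.6 and 28.1 CPM (ratio 1.60, 1.08 to 2.32). These rises did not extend to every subcluster: in the shallow subcluster led by inner root sheath keratins and cell cycle genes Nkd2 was at 150 and 47.9 CPM, the latter from 6 UMIs (ratio 0.319, 0.115 to 0.714). Of 38 pathway genes tested in the class 1 was at least 2-fold higher (Ndp, which encodes a ligand of Frizzled4) and 5 were 2-fold lower (Fzd5, Fzd6, Axin2, Tnfrsf19 and Kremen2), beside 3.91% and 7.02% of all genes of the class.

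In hair matrix-like cells Axin2 was also lower in TP, at 129 and 68.4 CPM (ratio 0.532, 0.416 to 0.674), while Lef1 was at 1426 and 1468 CPM and Tnfrsf19 at 654 and 909 CPM (ratio 1.39). In outer bulge and outer root sheath-like cells Axin2 was at 23.9 and 20.5 CPM, Tnfrsf19 at 71.6 and 113 CPM (ratio 1.58, 1.28 to 1.95) and Nkd2 at 21.1 and 6.51 CPM (ratio 0.308). Nkd2 was at like control levels in IFE basal-like cells (19.4 and 4.93 CPM) and the Ntn1-led cluster (20.3 and 8.78 CPM). In inner root sheath-like cells Nkd2 was at 203 and 253 CPM. The part of free RNA in the low Nkd2 levels was not tested. The co-receptor Lrp6 was at 148 and 125 CPM in DPC-like cells, 278 and 191 CPM in outer bulge and outer root sheath-like cells and 258 and 191 CPM in hair matrix-like cells. Its partner Lrp5 was at 41.3 and 46.1, 92.7 and 79.8, and 78.3 and 83.2 CPM in the same 3 classes. The target Sp5 had 66 UMIs in control and 73 in TP over all kept cells, too few to compare by class. In the Ntn1-led cluster, rich in all 3 receptors, Axin2 was at 56.1 and 42.3 CPM with an interval of the ratio that includes 1.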

How the data were processed

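Skin cells were profiled with a droplet 3′ assay, with 1 library per group. The deposited matrices hold raw counts (UMIs per gene and barcode) that the authors made with Cell Ranger 8.0.1 on mm10. Barcodes numbered 45709 in control and 25931 in TP. Barcodes outside a range of 200 to 8000 detected genes or above 10% mitochondrial UMIs were dropped, leaving 42244 and 20045, and the 7.5% with the highest doublet score were then removed (3168 and 1503), by a rewritten DoubletFinder procedure (25% artificial doublets, nearest 1% of cells).

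Libraries were integrated and clustered in Seurat 5.3.0 (R 4.3.3; 2000 variable genes, 30 components, resolution 1), leaving out the 9 genes and 42 pathway genes. A cluster took the class whose markers scored highest, above a set minimum score and with at least 3 detected markers, and stayed unnamed where another class had as many markers among its top 10 genes. Parts of this naming rule were set after the clusters were seen. The 9 genes and the lists were chosen with earlier results of these data known.

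Counts were summed per class and library in Python 3.11.15, and scaled to 1000000 UMIs. With 1 library per group no test was made. A level has an exact Poisson interval, a ratio an exact conditional binomial interval and a share a Clopper-Pearson interval, which cover counting error only; where no cell had a UMI, the limit given is 3 cells of the total. In each class, genes with at least 50 UMIs over both libraries entered the counts of 2-fold differences (1 UMI added to each), and a member needed 20 UMIs for a ratio. Cells were thinned to 1000 UMIs for shares, leaving out 5360 control and 816 TP cells below that. TMM factors came from edgeR 4.0.16. The genes named besides the 9 were pathway genes and the 3 genes most like each member. Subclusters were made at resolution 0.3, and 1 DPC-like subcluster is not reported here. Alternatives were other scalings, doublets kept, a mitochondrial limit of 20%, cells of at least 1000 UMIs, resolution 0.6, other thinning and other makeups. The TP cluster weights, the subcluster weights and the removal of 2 DPC-like subclusters were chosen after seeing the data. Values by class depend on these rebuilt names.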

Additional observations from a re-analysis of the deposited data

Results flagged for a closer look

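Among classes and clusters that held at least 5% of a gene's UMIs in either library, 4 genes had their highest and lowest ratio on opposite sides of 1, each with a 95% counting interval that excludes 1. The difference between the cells was not tested, since each group has 1 library. Lgr4 had a ratio of TP over control of 1.32 in the Ntn1-led cluster and 0.414 in IFE suprabasal-like cells. In the latter it was at 87.1 CPM in control and 36.1 CPM in TP, its lowest control level of all classes and clusters. The part of free RNA in that level was not tested. Lgr5 had a ratio of 3.18 in the histone-led cluster and 0.349 in inner root sheath-like cells, where it was at 14.6 CPM or less. Lgr6 had a ratio of 2.12 in outer bulge and outer root sheath-like cells (1.49 with the control's subcluster makeup) and 0.563 in IFE suprabasal-like cells. Rnf43 had a ratio of 1.16 in the Ntn1-led cluster, with a lower bound of 1.00, and 0.564 in IFE suprabasal-like cells.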

How the results depend on the processing

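No paired analysis was possible because each group has 1 library, and no replicate could be left out. Ratios of TP over control are given in the order Rspo1, Rspo2, Rspo3, Rspo4, Lgr4, Lgr5, Lgr6, Znrf3 and Rnf43 where all 9 moved by more than their counting interval, and the cause was not tested. Over all kept cells they were 0.844, 0.535, 0.543, 0.214, 0.657, 2.59, 1.49, 0.609 and 0.660 with TMM factors. As means over cells of counts per 10000 they were 0.883, 0.560, 0.604, 0.244, 0.642, 2.75, 1.68, 0.581 and 0.652. With the control's cluster makeup they were 0.968, 0.717, 0.637, 0.578, 0.852, 1.63, 1.18, 0.844 and 0.897, and with the TP makeup 0.950, 0.654, 0.584, 0.361, 0.819, 1.48, 1.17, 0.737 and 0.754. With doublets kept, 8 moved, to 0.666 for Rspo1, 0.422 for Rspo2, 0.426 for Rspo3, 0.510 for Lgr4, 1.94 for Lgr5, 1.18 for Lgr6, 0.479 for Znrf3 and 0.524 for Rnf43. With a mitochondrial limit of 20%, and doublets kept, Rspo1 was at 0.655, Rspo2 at 0.414, Rspo3 at 0.420, Lgr4 at 0.528 and Lgr5 at 2.04, and in cells of at least 1000 UMIs Rspo3 was at 0.442. The count of members at least 2-fold higher was 0 with doublets kept and with either makeup, and that of members 2-fold lower was 4 with doublets kept (Znrf3 besides the 3), 1 with TMM factors, means over cells or the TP makeup and 0 with the control's. Within the named class with most of a gene's control UMIs, TMM factors gave 1.20 for Rspo1, 0.728 for Rspo2, 0.737 for Rspo3, 0.621 for Lgr4, 1.40 for Lgr5, 1.19 for Lgr6, 0.891 for Znrf3 and 0.992 for Rnf43. Means over cells gave 0.647 for Rspo2, 0.722 for Lgr4, 1.55 for Lgr5, 0.942 for Znrf3 and 0.999 for Rnf43, and resolution 0.6 gave 0.606 for Lgr4. In DPC-like cells the control's subcluster makeup gave 1.19 for Rspo1, 1.03 for Rspo2 (a reversal), 0.810 for Rspo3 and 0.641 for Rspo4, and the TP makeup gave 1.30, 0.775, 0.720 and 0.538. In outer bulge and outer root sheath-like cells the control's subcluster makeup gave 1.46 for Lgr4, 1.41 for Lgr5 and 1.49 for Lgr6, and the TP makeup gave 1.53 for Lgr6. Without 2 subclusters with keratinocyte genes Rspo2 was at 0.644 and Rspo3 at 0.657. For the target genes in DPC-like cells the control's subcluster makeup gave 1.07 for Nkd1, a reversal, and the TP makeup gave 1.00 for Lef1, no difference. Apart from Rspo2, none of the ratios of the 9 genes given here for all cells or for these classes changed direction. The difference of Rnf43 in inner root sheath-like cells was nearly lost with TMM factors (0.992) and with means over cells (0.999). Differences between mice could not be measured.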
